A study of Homo sapiens with 13 samples.

Results

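FOXA1 binding sites that were strong in Ishikawa and in Hec1A, a pair of cell lines from endometrial cancer, are described here. The sites were chosen by their ChIP signal: a site was taken where a peak listed for Ishikawa and a peak listed for Hec1A shared at least 1 bp, the Ishikawa peak had a signal of 30 or more, and the Hec1A peak had a signal of 7 or more. The signal is the deposited number of sequenced tags in a peak per 10000000 tags of the pool; a tag is 1 mapped read, placed by its 5′ end. This gave 1411 sites, each made of 1 Ishikawa and 1 Hec1A peak, among 54855 Ishikawa and 13252 Hec1A peaks listed in all. The mitochondrial chromosome and chromosome Y were left out, and all values below are for the remaining 54854 Ishikawa and 13217 Hec1A peaks. Coordinates are those of the genome build hg19, and no gene annotation or genome sequence of that build was used here, so sites are named by position.

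FOXA1 is a forkhead transcription factor known as a pioneer factor, because its winged-helix domain can bind DNA on nucleosomes and make the site accessible to other proteins. In hormone-responsive epithelia such as breast, prostate and endometrium it is known for marking enhancers at which steroid hormone receptors bind. Chromatin immunoprecipitation and sequencing (ChIP-seq) maps where such a factor sits: cross-linked, sheared chromatin is precipitated with an antibody, here a rabbit antibody to FOXA1, and the recovered DNA is sequenced. Input is the same kind of chromatin without precipitation.

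For Ishikawa the labels describe 6 libraries of FOXA1 ChIP and 2 of input. For Hec1A they describe 3 of FOXA1 ChIP and 2 of input. Ishikawa and Hec1A are established human endometrial adenocarcinoma lines, each a single model of this tumour, and no treatment is given in the labels. The peaks of a line were called on its pooled ChIP libraries, with 343739762 tags in Ishikawa and 143055568 in Hec1A. Each line therefore has 1 list with no replicate values, and the comparisons below are descriptions with no test between samples. Intervals are 95% intervals that cover counting error alone and treat peaks as independent. The recorded Hec1A call names no input, so the Ishikawa peaks passed an input filter and the recorded Hec1A call applied none.

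Both thresholds stood in the upper range of their own list, but not equally far up. The Ishikawa threshold was met by 6043 peaks, 11.0% of the list, and the Hec1A threshold by 3686 peaks, 27.9% of the list. Of these strong peaks, 23.3% in Ishikawa (95% Wilson interval 22.3% to 24.4%) and 38.3% in Hec1A (36.7% to 39.9%) belonged to a site strong in both lines. The label "strong" is thus relative to each list: a signal of 7 in Hec1A stands for about 100 tags and 1 of 30 in Ishikawa for about 1031 tags, with counting errors of 9.99% and 3.11%. The sites made up 20.1% of the 7012 shared pairs, and they held 52.8% of the Ishikawa signal and 44.3% of the Hec1A signal in shared pairs. Of the signal in all listed peaks they held 14.4% in Ishikawa and 25.2% in Hec1A.

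Since the signal itself chose the sites, these levels are a description. The Ishikawa signal of the 1411 sites ranged from 30 to 1268, with a median of 64.9 and an interquartile range of 43.7 to 111.1. Their Hec1A signal ranged from 7.06 to 228.9, with a median of 12.8 and an interquartile range of 9.30 to 21.0. All Ishikawa peaks had a median of 9.69, and all Hec1A peaks a median of 4.96. The thresholds cut a continuous distribution. In Ishikawa 4 sites stood at exactly 30 and 3 shared pairs with a sufficient Hec1A signal stood at 29.9. In Hec1A 18 sites stood at 7.06 and 8 shared pairs with a sufficient Ishikawa signal stood at 6.99. Sites less than 10% above the threshold numbered 103 for Ishikawa and 111 for Hec1A. The pairs at 29.9 in Ishikawa, on chromosomes 3, 2 and 12, had Hec1A signals of 8.11, 31.5 and 9.09. Those named just inside it, on chromosomes 11, 13 and 16, had Hec1A signals of 9.02, 7.41 and 7.34. The sites named at 7.06 in Hec1A, on chromosomes 10, 11 and 12, had Ishikawa signals of 81.0, 58.5 and 370.5. The pairs named at 6.99, 1 on chromosome 9 and 2 on chromosome 7, had Ishikawa signals of 43.4, 31.1 and 33.6.

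**Figure D1:**
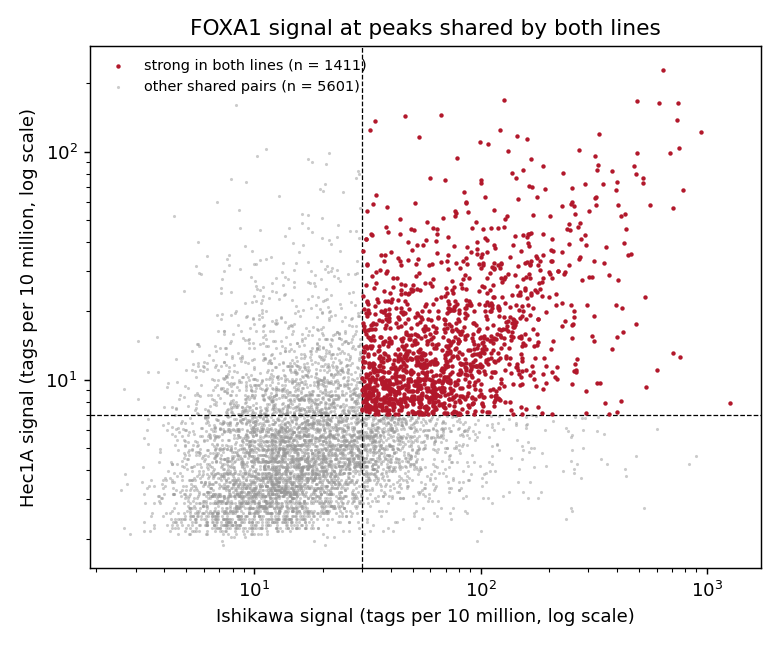
FOXA1 signal in Ishikawa (horizontal) and Hec1A (vertical) at the 7012 pairs of overlapping peaks, in tags per 10000000 on log axes; each point is 1 pair, red points are the 1411 sites strong in both lines, grey points the 5601 other pairs, and dashed lines the thresholds of 30 and 7. The red points reach from just above both thresholds to 1268 in Ishikawa and 228.9 in Hec1A, and the highest values of one line do not all coincide with those of the other.

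Among the sites, the lines ranked them only loosely alike. Spearman's rho of the 2 signals across the 1411 sites was 0.37 and Pearson's r of the log2 signals 0.44; the points share the 2 pools, and both signals were truncated by the rule. A total of 901 sites (63.9%, 95% Wilson interval 61.3% to 66.3%) lay on the same side of the sites' median in both lines. With the sites split into 4 groups of near equal size by their Ishikawa signal, the median Hec1A signal was 10.5 in the lowest group, from 30 to 43.6. It was 11.4 in the next group, 13.1 in the third, and 21.2 in the highest, from 111.2 upwards (95% interval of the median 18.9 to 23.6). Each of these groups held sites at the lowest Hec1A value of 7.06, and the highest Hec1A value in a group was between 136.7 and 228.9, so the ranges overlapped throughout. Of the 100 strongest sites of each line 41 were among the 100 strongest of both, and of the 10 strongest 2 were.

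The 8 sites of highest mean rank over both lines are given next, and they include both of those. The first, on chromosome 17 at 79367743 to 79368095 in Ishikawa, had a signal of 745.6 in Ishikawa and 164.0 in Hec1A. It held about 25629 Ishikawa tags and 2346 Hec1A tags. The pooled Ishikawa input held 3 tags there, and the deposited fold over input was 962.8. The ChIP and input counts come from separate pools, so their quotient is not this fold. The second, on the same chromosome at 39114362 to 39114714, had 639.3 in Ishikawa and 228.9 in Hec1A, the highest Hec1A value of any site. The third, on chromosome 12 at 31902297 to 31902649, had 939.2 in Ishikawa and 121.8 in Hec1A. All 3 ranked within the first 12 of the sites in both lines.

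The next site in this order stood apart in its input. At chromosome 11, 85194937 to 85195289, the signal was 738.8 in Ishikawa and 137.1 in Hec1A, but the pooled Ishikawa input held 324 tags there, and its fold over input was 8.83. The next highest input of any site was 25 tags, on chromosome 12 at 53343562, and the median was 7. The chromosome 11 site also had a clonal fold of 1.05 in Ishikawa, where the 7 other sites of highest mean rank had 0.55 to 0.61. The clonal fold sets the unique positions expected in a peak over those found, and it is high where many tags start at the same few bases. Its part in the signal of this site was not tested, and as the Hec1A list has no input column, the same check was not made there.

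The remaining 4 sites of highest mean rank had low input, with 7 or 8 tags each. At chromosome 9, 128300326 to 128300678, the signal was 615.1 in Ishikawa and 162.7 in Hec1A. At chromosome 1, 75155543 to 75155895, it was 492.5 in Ishikawa and 166.9 in Hec1A. At chromosome 8, 52811549 to 52811901, it was 750.2 in Ishikawa and 103.7 in Hec1A, and at chromosome 1, 3541181 to 3541533, it was 685.7 in Ishikawa and 98.7 in Hec1A. The peak centres of the lines were 0 to 1 bp apart at these 4 sites, and the focus ratio, the fraction of a peak's tags that lie on the proper side of its centre for their strand, was 0.985 or more in both lines.

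The ratio of the Ishikawa to the Hec1A signal varied widely among the sites. Its median was 4.96 (95% interval 4.79 to 5.13), with 5th and 95th percentiles of 1.48 and 14.2, against a median of 3.16 over the 5601 other shared pairs. The thresholds themselves have a ratio above 4, and Ishikawa peaks were counted over 353 bp and Hec1A peaks over 254 bp, so the level of this ratio does not compare binding alone. The ratio was above 10 at 165 sites and below 1 at 26 sites. The fold of a peak over its surrounding 10000 bp has the same signal as its numerator, and the Ishikawa threshold was the stricter one within its list, so a higher Ishikawa fold is in part set by the rule. As a description, the sites had a median fold of 33.6 in Ishikawa and 13.1 in Hec1A, against 10.7 in Ishikawa and 5.72 in Hec1A over the other shared pairs, and the fold was higher in Ishikawa at 91.5% of sites. The median ratio of these folds was 2.54 (2.46 to 2.62).

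At the upper end stood the strongest peak of the whole Ishikawa list, on chromosome 17 at 41747442 to 41747794. Its signal was 1268 in Ishikawa and 7.90 in Hec1A, a ratio of 160.4, from about 43569 and 113 tags. It was thus a member only by a narrow margin in Hec1A, although the centres of the 2 peaks lay 2 bp apart. The next ratios were 60.7 on chromosome 2 at 161991787 (764.2 in Ishikawa and 12.6 in Hec1A), 57.7 on chromosome 2 at 43861742 (536.6 and 9.30) and 55.5 on chromosome 8 at 74091700 (399.7 and 7.20). Their Hec1A peaks held between 103 and 180 tags, so the Hec1A values carry the larger counting error. The 4 sites of highest ratio had an Ishikawa local background (signal divided by fold over the local region) of 3.08 to 13.7. The median over all sites was 2.00. Their Hec1A local background was 0.903 to 1.33, against a median of 1.08. The fold over the local region was 92.25 to 129.86 in Ishikawa and 7 to 10.63 in Hec1A. The ratio of these folds was at most 20.9 at any site, below each of these 4 signal ratios.

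At the 4 lowest ratios the signal was higher in Hec1A. On chromosome 5 at 162806589 the signal was 34.0 in Ishikawa and 136.7 in Hec1A, a ratio of 0.249. On chromosome 9 at 130717674 it was 32.3 in Ishikawa and 124.6 in Hec1A, a ratio of 0.259. On chromosome 7 at 103301037 it was 46.4 in Ishikawa and 143.0 in Hec1A, and on chromosome 20 at 52684181 it was 66.8 in Ishikawa and 145.3 in Hec1A. These 4 ranked sixth to eleventh among the sites in Hec1A and between 691 and 1327 in Ishikawa. Their Hec1A local background, the signal divided by the fold over the local region, was 1.34 to 1.62 tags per 10000000, against a median of 1.08 over all sites, and the fold over the local region was also higher in Hec1A than in Ishikawa at each of them, for example 27.3 in Ishikawa and 102.3 in Hec1A on chromosome 5.

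Strong peaks of one line more often had a strong counterpart the higher their own signal, except in the highest range of Hec1A. Among Ishikawa peaks of 30 to below 50, 15.3% were strong in both lines (95% Wilson interval 14.1% to 16.6%, 469 of 3068). This share was 27.4% from 50 to below 100, 38.1% from 100 to below 200, 39.8% from 200 to below 400, and 54.7% at 400 or more (42.6% to 66.3%, 35 of 64). Among Hec1A peaks the share was 27.5% from 7 to below 10 (436 of 1583), 41.9% from 10 to below 20, 54.3% from 20 to below 40, and 60.5% from 40 to below 80. At 80 or more it was 34 of 68 (38.4% to 61.6%), and the interval overlaps that of the range before it. For any partner, whatever its strength, the share was 37.7% of strong Ishikawa peaks and 70.6% of strong Hec1A peaks. Over all peaks it was 12.8% in Ishikawa and 53.1% in Hec1A. These shares follow in part from the rule, which uses the same signals.

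**Figure D2:**
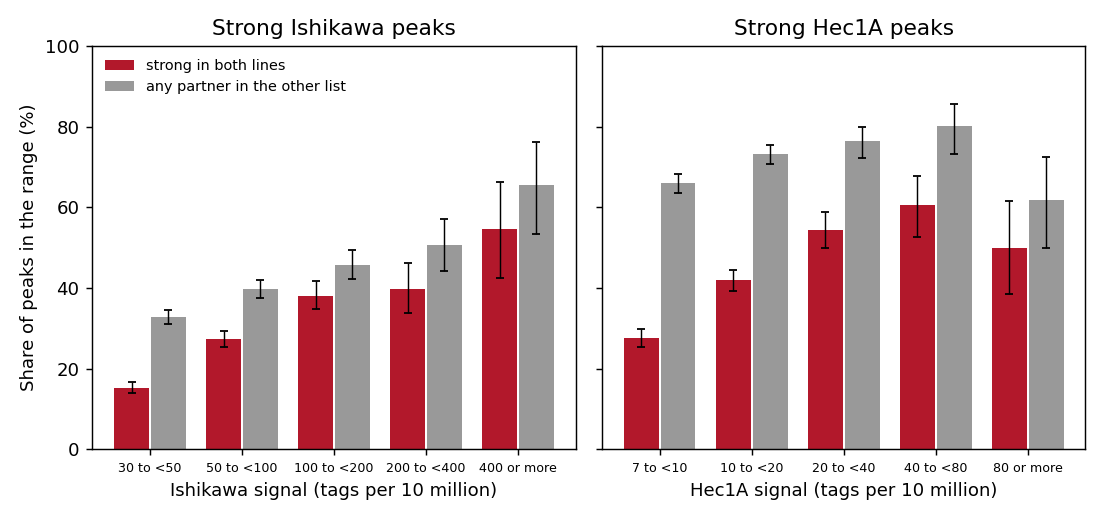
Share of strong peaks, in percent, that were strong in both lines (red) or had any overlapping peak in the other list (grey), by range of their own signal in tags per 10000000, for Ishikawa (left) and Hec1A (right); error bars are 95% Wilson intervals. In Ishikawa the red bars run from 15.3% to 54.7%, and in Hec1A from 27.5% to 60.5%, with 34 of 68 peaks in the highest range.

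The position of the peak centre is a measure that the rule did not use beyond an overlap of 1 bp, although a centre is placed more precisely where more tags lie. In the sites the Ishikawa and Hec1A centres were a median of 6 bp apart (95% interval 5 to 7), against 18 bp (17 to 19) in the other shared pairs. The centres fell within 10 bp of each other in 66.2% of the sites (95% Wilson interval 63.7% to 68.6%) and in 36.2% of the other shared pairs (34.9% to 37.5%). Within 50 bp the shares were 94.0% of the sites and 79.3% of the other pairs. In 125 sites (8.86%) both centres were at the same position, against 2.37% of the other shared pairs. The Hec1A centre had the higher coordinate in 614 sites and the lower one in 672, so neither side clearly prevailed. The distance was smaller at stronger sites, with a median of 9 bp in the group of lowest Ishikawa signal and 3 bp in that of highest, of the same 4 groups.

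**Figure D3:**
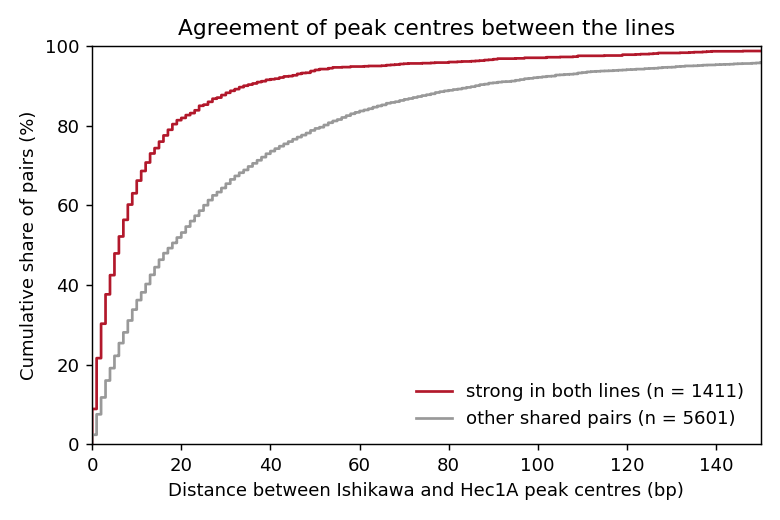
Cumulative share of pairs, in percent, by the distance in bp between the centres of the Ishikawa and the Hec1A peak, for the 1411 sites strong in both lines (red) and the 5601 other shared pairs (grey), shown up to 150 bp. The red curve reaches 66.2% at 10 bp, where the grey curve stands at 36.2%.

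A few sites were pairs by overlap alone. In 42 sites (2.98%) the centres lay more than 100 bp apart. They lay within 100 bp in 97.0% of the sites and in 92.1% of the other shared pairs. The farthest were 294 bp apart on chromosome 6, with Ishikawa at 41862893 to 41863245 and Hec1A at 41863236 to 41863490. That site had a signal of 47.6 in Ishikawa and 8.88 in Hec1A. The next were 254 bp apart on chromosome 11 at 62608784, with 56.1 in Ishikawa and 9.58 in Hec1A, and on chromosome 7 at 113852810, with 114.2 in Ishikawa and 7.97 in Hec1A. Whether these are 1 or 2 binding events cannot be told from the lists.

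The other deposited measures come from the same tags as the signal and are given as a description. The focus ratio had a median of 0.940 in Ishikawa and 0.905 in Hec1A at the sites, against 0.913 and 0.886 at strong peaks of each line with a weaker partner. It was 0.9 or more in both lines at 673 sites (47.7%), and at 7.32% of the other shared pairs. Over all peaks 18.2% in Ishikawa and 17.4% in Hec1A reached 0.9. A fold over the local region of 8 or more was found at 98.7% of the sites in Ishikawa and 79.9% in Hec1A, against 40.1% and 25.9% of all peaks. A fold over input of 8 or more, known for Ishikawa alone, was found at 1408 of the 1411 sites, against 48.6% of all Ishikawa peaks. Strong Ishikawa peaks with a weaker partner and those with no partner reached it at 99.7% each, so it was not particular to the sites. The median fold over input at the sites was 40.5.

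Clonality at the sites differed between the lines, whose thresholds were met by 11.0% of the Ishikawa and 27.9% of the Hec1A list. A clonal fold above 1 was found at 21 sites in Ishikawa (1.49%), where 25.1% of all peaks had one. In Hec1A it was found at 139 sites (9.85%), where 28.7% of all peaks had one. Strong Ishikawa peaks with a weaker partner had 1.85% and those with no partner 1.49%, so the low Ishikawa share was not particular to the sites. Of the strong Hec1A peaks with an Ishikawa partner below 30, 31.7% had such a fold, and of the strong Hec1A peaks with no partner 44.0%. In all, 1256 sites had a clonal fold of 1 or less in both lines. The clonal fold varied nearly independently between the lines, with a Spearman's rho of 0.11 across the sites. For the focus ratio rho was 0.55.

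The input level of the sites was that of other strong Ishikawa peaks. The pooled input had a median of 7 tags per site, with 5th and 95th percentiles of 2 and 13. The median was also 7 at the 3765 strong Ishikawa peaks with no partner, and 5 over all Ishikawa peaks. The Ishikawa local background had a median of 2.00 at the sites (95% interval 1.93 to 2.07) and 2.21 at strong Ishikawa peaks with no partner (2.17 to 2.25). In Hec1A it was 1.08 at the sites (1.051 to 1.102) and 1.18 at strong Hec1A peaks with no partner (1.13 to 1.22). Strong peaks with a weaker partner had 1.90 in Ishikawa (1.83 to 1.95) and 1.06 in Hec1A (1.03 to 1.09), with intervals that overlap those of the sites. A background below that of strong peaks with no partner was thus found at both kinds of strong peak with a partner. All listed peaks had medians of 1.34 in Ishikawa and 0.810 in Hec1A.

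Sites were then set beside strong peaks of the same line and the same range of signal that had no partner in the other list. Strong peaks with a weaker partner were not split by range, so a difference found here may not be particular to the sites. Over all ranges the median focus ratio of strong peaks with a weaker partner was 0.913 in Ishikawa and 0.886 in Hec1A. At strong peaks with no partner it was 0.896 and 0.877. In Ishikawa the focus ratio of the sites was higher in each of 4 ranges. From 50 to below 100 its median was 0.942 at 527 sites (95% interval 0.936 to 0.945) and 0.905 at 1159 peaks with no partner (0.899 to 0.911). At 200 or more it was 0.972 at 127 sites (0.963 to 0.976) and 0.935 at 136 peaks with no partner (0.929 to 0.949). In Hec1A it was higher as well, for example 0.940 at 257 sites and 0.922 at 112 peaks with no partner from 20 to below 40, but the intervals touched from 10 to below 20 (0.896 to 0.907 at the sites and 0.886 to 0.899 at peaks with no partner).

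The clonal fold of Hec1A peaks differed at each level of signal. From 7 to below 10, 7.80% of the sites (95% Wilson interval 5.63% to 10.7%) and 45.1% of the peaks with no partner (40.9% to 49.3%) had a Hec1A clonal fold above 1. At 40 or more the shares were 3.10% of 129 sites (1.21% to 7.70%) and 40.4% of 57 peaks with no partner (28.6% to 53.3%). In Ishikawa few peaks of either kind had such a fold, with 2.77% of the sites and 2.09% of the peaks with no partner from 30 to below 50. The Hec1A peaks with no partner at 40 or more also had a median local background of 2.85, against 1.37 at the sites. This range has no upper limit, and the median signal was 75.8 at those peaks and 58.4 at the sites. What part clonality and background have in the lack of a partner was not tested.

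The neighbourhood of the sites was read from the centres of all listed peaks, which the rule did not use. Another Ishikawa peak lay within 10 kb of 515 sites (36.5%, 95% Wilson interval 34.0% to 39.0%), against 33.9% of all Ishikawa peaks. Among strong Ishikawa peaks with no Hec1A partner the share was 44.3% (42.7% to 45.9%), and among those with a weaker partner 34.7% (31.6% to 37.9%). In each of 4 ranges of signal the share was lower at the sites than at peaks with no partner, but the intervals were apart in only 2 of them. They were apart from 30 to below 50, with 36.7% of sites (32.4% to 41.1%) and 44.3% of peaks with no partner (42.1% to 46.4%), and from 50 to below 100, with 37.4% of sites (33.4% to 41.6%) and 44.7% of peaks with no partner (41.9% to 47.6%). At 100 to below 200 the intervals overlapped, with 35.8% of sites (30.4% to 41.5%) and 41.6% of peaks with no partner (36.9% to 46.4%). They also overlapped at 200 or more, with 33.9% of sites (26.2% to 42.5%) and 49.3% of peaks with no partner (41.0% to 57.6%). Within 50 kb another Ishikawa peak was found at 91.6% of the sites, against 87.8% of all Ishikawa peaks. In the Hec1A list another peak lay within 10 kb of 19.1% of the sites, against 15.7% of all Hec1A peaks. Within 50 kb the shares were 56.5% and 50.9%. Strong Hec1A peaks with no partner had 26.1% and 61.3%, and those with a weaker partner 16.4% and 55.1%. Within 10 kb, from 7 to below 10, it was 16.5% of sites and 25.2% of peaks with no partner. It was 21.4% and 21.2% from 10 to below 20, 19.1% and 34.8% from 20 to below 40, and 17.1% and 49.1% at 40 or more. The intervals overlapped only from 10 to below 20.

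The rank of a site among its neighbours rests on the signal that chose the sites, so it is a description from which nothing is read. Of the 1293 sites with another Ishikawa peak within 50 kb, 83.6% had the highest Ishikawa signal in that window, against 31.1% of all Ishikawa peaks with such a neighbour. The share was 78.8% among strong Ishikawa peaks with a weaker partner and 72.6% among those with no partner. In Hec1A the site was the strongest in 79.8% of 797 cases, against 41.8% of all Hec1A peaks with a neighbour. There the share was 71.0% among strong peaks with a weaker partner and 59.1% among those with no partner.

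Most sites had no other site strong in both lines close by, but such a share depends on how many sites there are. No comparison set of equal number was grouped, so the counts are a description. When sites with centres no more than 100 kb from the next were joined, 1106 sites (78.4%) had no other site strong in both lines so near. A further 238 sites formed 119 pairs and 54 formed 18 groups of 3. There were 2 groups of 4 sites and 1 of 5. In the 140 groups of 2 or more sites, the site of highest signal was the same in both lines in 95 groups (67.9%, 95% Wilson interval 59.7% to 75.0%), and for the 119 pairs it was the same in 82.

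The group of 5 lay on chromosome 12 from 120668160 to 120763582, a span of 95.4 kb that held 6 Ishikawa and 5 Hec1A peaks in all. All 5 Hec1A peaks there belonged to sites strong in both lines. From the lowest coordinate on, their Ishikawa signals were 73.7, 85.6, 559.6, 324.6 and 85.0, and their Hec1A signals 8.74, 15.1, 58.2, 58.4 and 10.1. The 2 sites of highest signal were the same in both lines, though by differing proportions, with ratios of 9.62 and 5.56. The pooled input at the 5 sites was 3 to 15 tags.

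**Figure D4:**
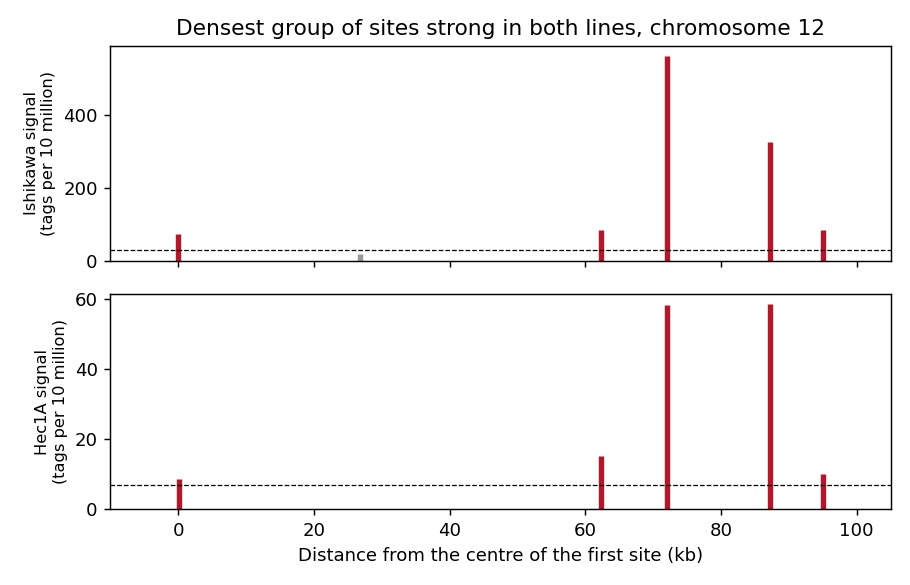
The densest group of sites strong in both lines, on chromosome 12, with the FOXA1 signal in tags per 10000000 in Ishikawa (top) and Hec1A (bottom) against the distance in kb from the centre of the first site; each bar is 1 listed peak, red bars are peaks at or above the threshold of the line (dashed line) and the grey bar is the 1 Ishikawa peak below it. The same 2 sites are the highest in both lines, at 559.6 and 324.6 in Ishikawa and 58.2 and 58.4 in Hec1A.

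The groups of 4 differed in their make-up. On chromosome 5, from 123974678 to 123997429, 4 sites lay within 22.8 kb that held 5 Ishikawa and 5 Hec1A peaks. Their signals ranged from 37.4 to 492.9 in Ishikawa and from 7.55 to 98.7 in Hec1A. On chromosome 12, from 46736918 to 46886677, 4 sites of near equal Ishikawa signal, 50 to 53.7, were spread over 149.8 kb among 15 Ishikawa and 7 Hec1A peaks, and their Hec1A signals ranged from 7.20 to 25.9.

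The sites were found on each of the 23 chromosomes considered. Chromosome 3 held the most, with 124 sites, followed by chromosome 2 with 118, chromosome 1 with 103 and chromosome 12 with 100. Chromosome 21 held the fewest, with 15. The share of chromosome 12 was 7.09% (5.86% to 8.55%), against 5.36% of the Ishikawa list and 4.65% of the Hec1A list. Chromosome 17 held 81 sites, 5.74% of them (95% Wilson interval 4.64% to 7.08%), against 3.14% of the Ishikawa list and 5.40% of the Hec1A list. Chromosome 19 held 67, or 4.75% (3.76% to 5.99%), against 2.32% of the Ishikawa list and 4.07% of the Hec1A list. Chromosome X held 19, or 1.35% (0.864% to 2.09%), against 3.61% of the Ishikawa list and 3.02% of the Hec1A list. Chromosome 13 held 28, or 1.98% (1.38% to 2.85%), against 3.61% and 2.60%.

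The share of strong peaks that were strong in both lines depended on the list from which it was read. Among strong Ishikawa peaks it was 42.1% on chromosome 19 (95% Wilson interval 34.7% to 49.9%), 39.9% on chromosome 17 (33.4% to 46.8%) and 36.4% on chromosome 20 (28.0% to 45.7%), against 23.3% over all chromosomes. It was 18.2% on chromosome 12 (15.2% to 21.7%), 18.5% on chromosome 4 (15.1% to 22.5%) and 15.6% on chromosome 13 (11.0% to 21.6%). Among strong Hec1A peaks the order was another one. Chromosome 12 had 57.5% (50.04% to 64.6%) and chromosome 19 had 47.2% (39.2% to 55.4%), against 38.3% over all chromosomes. Chromosome 17 had 33.9% (28.2% to 40.1%), an interval that holds the overall share. By interval, only chromosome 19 was thus above the overall share in both lists. In Ishikawa chromosomes 17, 20 and 16 (31.3%, 24.1% to 39.6%) were above it, and chromosomes 12, 4 and 13 were below it. In Hec1A chromosomes 12 and 11 (46.8%, 38.8% to 55.0%) were above it. Chromosomes 5 (31.7%, 25.8% to 38.1%) and X (26.8%, 17.9% to 38.1%) were narrowly below it there. Chromosomes 7, 11, 16, 20 and 22 had values above it in both lists, with an interval that holds it in at least 1.

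Background levels moved with some of these chromosomes. The sites on chromosome 12 had a median Ishikawa local background of 2.85 and a median input of 9 tags, against 2.00 and 7 over all sites, and their median Ishikawa signal was 81.9 against 64.9. The sites on chromosome 17 had a median Hec1A local background of 1.35, those on chromosome 3 of 1.38 and those on chromosome 5 of 1.37, against 1.08 over all sites. On chromosome 19 the medians were 1.77 in Ishikawa, 1.12 in Hec1A and 6 input tags. The sites on chromosome X had a median input of 2 tags and an Ishikawa local background of 1.39. The part of regional tag levels in the chromosome shares was not tested, and Hec1A input is not analysed here.

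**Figure D5:**
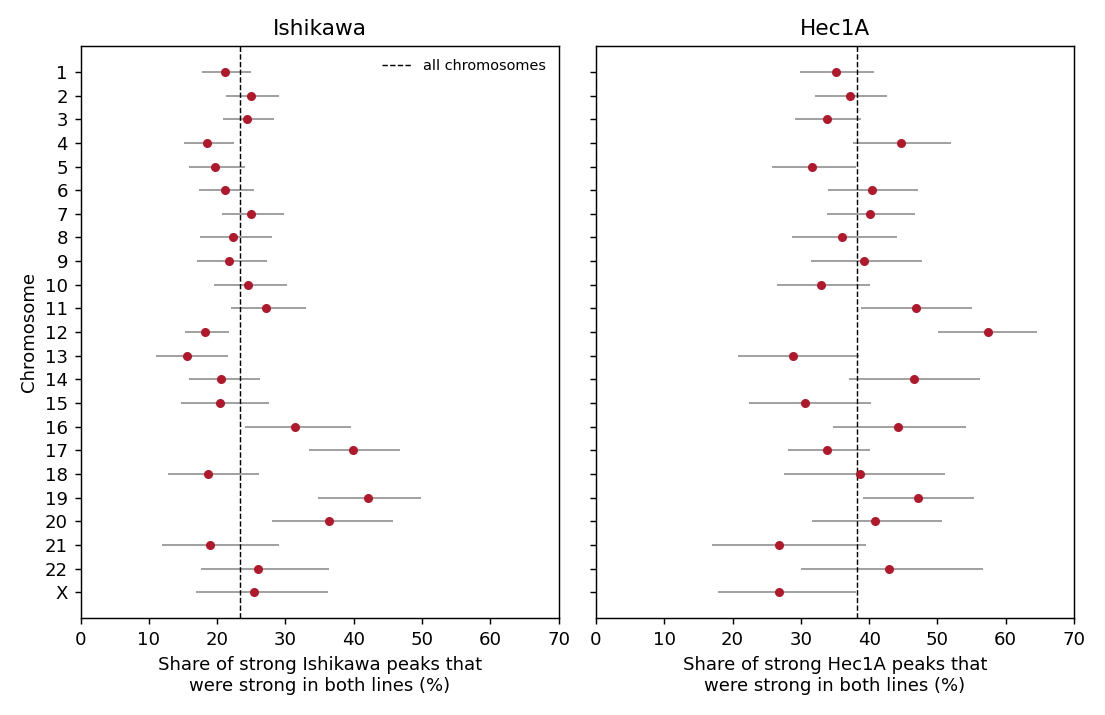
Share of strong Ishikawa peaks (left) and of strong Hec1A peaks (right), in percent, that were strong in both lines, by chromosome; points are shares, grey bars 95% Wilson intervals and dashed lines the shares over all chromosomes, 23.3% and 38.3%. Chromosomes 17, 19 and 20 stand highest in Ishikawa, with 36.4% to 42.1%, and chromosome 12 stands highest in Hec1A, with 57.5%.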

How the data were processed

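FOXA1 ChIP-seq lists of Ishikawa and Hec1A were used, 1 list per line. The submitters' processing notes name HOMER 4.7.2, Bowtie 1.1.2, SAMtools 1.3.1 and hg19. The authors ran HOMER findPeaks in factor mode on pooled ChIP tags, per the file headers, at a false discovery rate of 0.001 (88 tags in Ishikawa, 32 in Hec1A), with a fold of 4 over the surrounding 10000 bp, a limit on clonality and, in Ishikawa alone, a fold of 4 over the 2 pooled inputs.

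The deposited signal is tags per 10000000. The deposited focus ratio is a fraction, and the deposited folds over local region and input and the clonal fold are ratios. The deposited input tags are numbers of tags, with 0.5 as the lowest value. The deposited findPeaks score entered no comparison, and 4 further deposited columns, the p-values and the scaled ChIP tags, were not used.

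Pairs were found as closed intervals sharing at least 1 bp (Python 3.11.15, numpy 2.4.6, pandas 2.3.3). The code was run on simulated lists in which only planted sites passed the thresholds. It returned 500 sites where 500 were planted and 0 where 0 were. Because no other peak could pass, this checks the code alone. Shares have 95% Wilson intervals (scipy 1.17.1), and medians exact binomial order-statistic intervals. Sites named are the 8 of highest mean rank, the 4 highest and 4 lowest ratios, those next to the thresholds and the densest group within 100 kb. The sites with the highest input or farthest centres, the other groups and the chromosomes named were chosen after their values were seen. The sites and thresholds were chosen with earlier results of these data known. Of tied sites, those named were taken in order of chromosome name, and in the reverse order below the thresholds. Planned analyses of gene starts, gene lists and forkhead motifs need an hg19 annotation or genome and were not run, and the reference tables at hand are of another build. Values per library are not analysed here.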

Additional observations from a re-analysis of the deposited data

How the results depend on the processing

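Of 56 alternatives computed over 5 results, 51 kept the value within its interval, or a count within 1.5 times. Most settings took away from the same sites or added to them, and a fold over input of 8 kept 1408 of the 1411. Many values thus had little room to move. The number of sites ranged from 975 with a Hec1A threshold of 10 to 1845 with one of 5. The median distance between centres ranged from 5 to 7 bp, and the median input stayed at 7 tags. The share of sites on the same side of the median in both lines, 63.9%, moved to 60.7% with an Ishikawa threshold of 20 and to 66.3% at a clonal fold of 1 or less in both lines. The share with another Ishikawa peak within 10 kb, 36.5%, moved to 32.9% where both peaks had to exceed their local region by a fold of 8. It was 28.8% when the same number of peaks per list was taken by fold over the local region, which by coincidence also gave 1411 pairs, 1041 of them sites described above. The cause of these falls was not tested. With a distance of 50 kb the share was 91.6%, since the window was wider. The ranking by fold over the local region and the omission of chromosomes 3, 5, 12 and 17 were chosen after seeing the data. Alternatives on gene starts and forkhead motifs were not run, nor was any library left out. No paired analysis was possible because each list comes from pooled libraries. Depth limits single values, with a counting error at the threshold of 3.11% in Ishikawa and 9.99% in Hec1A.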
